A study of Bos taurus with 34 samples.

Results

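RARA (ENSBTAG00000012500) and DHRS3 (ENSBTAG00000024493) were followed in peripheral white blood cells (PWBC) of 17 heifers, as 2 of the 27570 genes counted. They were chosen by name for their abundance in the 3 groups of heifers, so the differences between groups given for them describe the chosen values and carry no test. Retinoic acid, made from vitamin A, acts on transcription through nuclear receptors. RARA encodes the retinoic acid receptor alpha, which pairs with a retinoid X receptor on DNA, holds a corepressor complex in the absence of retinoic acid and gathers coactivators in its presence, and is known for its part in the maturation of granulocytes. DHRS3 encodes a reductase that turns retinal back into retinol and so draws substrate away from the synthesis of retinoic acid, and the gene is itself a known target of retinoic acid.

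Blood was drawn right after artificial insemination (AI) from Angus-Simmental crossbred heifers of 14 months of age on average. All had the same estrous synchronization, were inseminated with semen of the same sire and were later exposed to bulls for natural breeding (NB), and the groups were assigned from the pregnancy outcome alone, so no group was treated apart from another. There were 6 heifers pregnant to AI (AI-preg), 6 pregnant to bulls (NB-preg) and 5 that failed to become pregnant (non-pregnant), each with 1 PWBC library of mRNA from the buffy coat after lysis of red cells and 1 library of small RNA from cell-free plasma. They were a subset of the heifers bred. The authors had removed 1 further non-pregnant heifer for low sequencing yield. Each heifer was sampled once, so the spread within a group is that between animals, and the non-pregnant heifers serve both comparisons with pregnant heifers, which are therefore not independent of each other.

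The deposited PWBC values are counts of read pairs per gene. Library totals ran from 15353819 to 67192941 in AI-preg heifers, from 6402207 to 56867279 in NB-preg heifers and from 4184999 to 20164587 in non-pregnant heifers, so the non-pregnant libraries were in general the shallowest. Counts were expressed as CPM, the usual scaling of counts to a common library total, here summed over the 10942 genes with at least 2 CPM in 5 or more libraries, and both RARA and DHRS3 passed this filter. CPM are not scaled to gene length, and levels are therefore compared between heifers, not between genes. The libraries of the non-pregnant heifers 94, 107 and 113 stood above all others in some of the white cell markers (CSF3R, S100A12, TREM1, LCK, IL5RA and ITGA2B) but not in others (CXCR2, CD22 and NKG7). CSF3R, the receptor of the granulocyte growth factor G-CSF, was at 1101, 636 and 1241 CPM in them and at 0.402 to 122.7 CPM in the other heifers. The non-pregnant heifer 115 stood at the other end for markers of several cell types. It had the lowest CPM of 17 heifers for LCK of T cells (3.32), CD22 of B cells (7.74) and NKG7 of NK cells (2.83). The same held for ITGA2B of platelets (0.123 CPM, 1 read pair), but not for CSF3R (42.3 CPM) or IL5RA of eosinophils (15.2 CPM). Results that rest on heifers 94, 107 and 113 are given below with and without them.

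RARA was on average highest in the non-pregnant heifers, where its spread on a log scale was the smallest of the 3 groups. It was at 31.95 CPM in heifer 94, 24.7 in heifer 101, 30.9 in heifer 107, 51.96 in heifer 113 and 32.8 in heifer 115. In the AI-preg heifers the lowest value was 7.24 CPM, the median 13.7 and the highest 21.2. All 5 non-pregnant heifers thus lay above all 6 AI-preg heifers, a separation in this direction that 7 of the 10942 genes had (0.064%), RARA among them, which was read from the same values by which the gene was chosen. In the NB-preg heifers RARA ran from 11.03 to 34.4 CPM with a median of 19.3, and overlapped with both other groups. Heifers 108 (31.9 CPM) and 116 (34.4 CPM) reached the non-pregnant range, and 3 of 6 NB-preg heifers exceeded every AI-preg heifer. All 5 non-pregnant heifers exceeded the NB-preg median and 1 of them exceeded the highest NB-preg heifer.

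**Figure D1:**
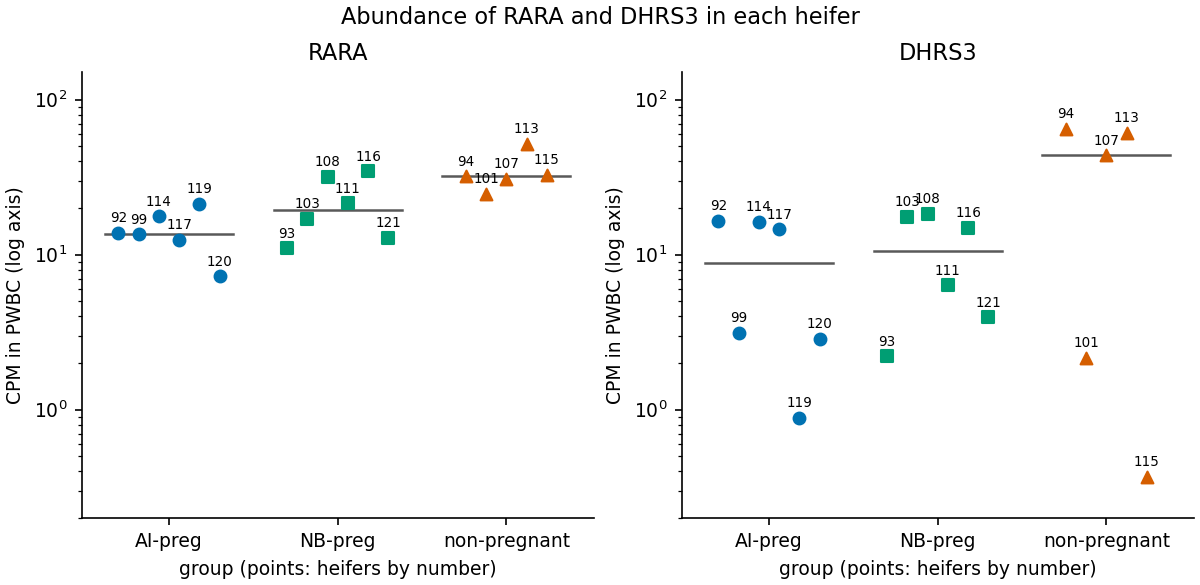
CPM of RARA (left) and DHRS3 (right) in PWBC on log axes for each heifer, labelled by number, with the group median as a line. RARA lies at 24.7 to 51.96 CPM in all 5 non-pregnant heifers and at 7.24 to 21.2 CPM in the AI-preg heifers, whereas DHRS3 in the non-pregnant heifers lies either at 43.5 to 64.7 CPM or at 0.369 and 2.16 CPM.

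The group means of RARA were 14.3 ± 4.76 CPM (SD, n = 6) for AI-preg, 21.5 ± 9.78 CPM (SD, n = 6) for NB-preg and 34.5 ± 10.3 CPM (SD, n = 5) for non-pregnant heifers. The 3 groups were fitted together over all filtered genes with edgeR. The log2 fold change of non-pregnant over AI-preg was 1.27, a 2.41-fold difference, with an approximate standard error (SE) of 0.43. It was 0.69 (SE 0.43) over NB-preg and 0.58 (SE 0.41) for NB-preg over AI-preg. The level of RARA in the 2 non-pregnant heifers other than 94, 107 and 113 had a mean of 28.8 CPM, 2.01 times the AI-preg mean. Without those 3 libraries the log2 fold changes were 1.01 over AI-preg and 0.42 over NB-preg. RARA rested on 103 to 1044 read pairs per library, and counting error was small beside the range between heifers. It was not small for the closest pair of non-pregnant and AI-preg heifers. Exact Poisson 95% intervals were 20.2 to 29.95 CPM in heifer 101 and 19.5 to 23.1 CPM in heifer 119, and overlapped.

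DHRS3 split the non-pregnant group. It was at 64.7 CPM in heifer 94, 43.5 in heifer 107 and 61.3 in heifer 113, above each of the 12 pregnant heifers, but at 2.16 CPM in heifer 101 and 0.369 in heifer 115, which ranked 15 and 17 among the 17 heifers. The 2 low values rest on 9 and 3 read pairs, and exact Poisson 95% intervals reach from 0.987 to 4.10 CPM and from 0.0760 to 1.08 CPM, for counting error only. The AI-preg heifers were spread from 0.885 to 16.5 CPM with a median of 8.86, of which heifers 92, 114 and 117 were at 14.6 CPM or above and the other 3 at 3.13 CPM or below. The NB-preg heifers ran from 2.20 to 18.4 CPM with a median of 10.6. The pregnant groups overlapped over nearly their whole range, and the non-pregnant group reached above and below both.

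The mean of DHRS3 was 9.04 ± 7.46 CPM (SD, n = 6) in AI-preg, 10.5 ± 7.21 CPM (SD, n = 6) in NB-preg and 34.4 ± 31.3 CPM (SD, n = 5) in non-pregnant heifers. The log2 fold change of non-pregnant over AI-preg was 1.93 (SE 0.96), over NB-preg 1.71 (SE 0.96), and of NB-preg over AI-preg 0.22 (SE 0.91). Those fold changes of the non-pregnant group turned to -2.89 and -3.10 without heifers 94, 107 and 113, when the non-pregnant mean was 1.26 CPM. The mean difference of DHRS3 between non-pregnant and pregnant heifers therefore rested on those 3 libraries, which that of RARA did not.

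Both genes also differed in how much they varied within groups. The pooled SD of log2(CPM + 1) within groups was 0.52 for RARA and 1.77 for DHRS3, beside a median of 0.95 over all filtered genes. Of these genes, 8.91% had a lower SD than RARA and 96.4% a lower SD than DHRS3. Among the non-pregnant heifers alone the SD was 0.38 for RARA, with 3.78% of genes below it, and 2.66 for DHRS3, with 98.9% below it. On this log2 scale the expression of RARA was thus among the steadier in the non-pregnant heifers and that of DHRS3 among the more variable. Both are read from the values by which the genes were chosen. In CPM the SD of RARA was instead largest in the non-pregnant heifers (10.3, against 4.76 in AI-preg and 9.78 in NB-preg). Over the 17 heifers the Pearson's r of RARA and DHRS3 was 0.430 and Spearman's rho 0.368, values that include the group differences for which both were chosen. With each group centred on its mean, r was 0.365 and rho 0.324, and neither passed a two-sided permutation test within groups (p = 0.114 for r and 0.155 for rho; 0.205 and 0.279 after Benjamini-Hochberg adjustment over the 9 relations tested with these genes). The r was -0.0246 among the AI-preg and 0.797 among the NB-preg heifers (exact permutation p = 0.988 and 0.0792, two-sided, n = 6 each). Over the 14 heifers other than 94, 107 and 113 the uncentred r was 0.0412 and the centred r 0.336 (permutation p = 0.275). Without the 2 heifers farthest from the median of RARA (113 and 120) the uncentred r was 0.232.

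**Figure D2:**
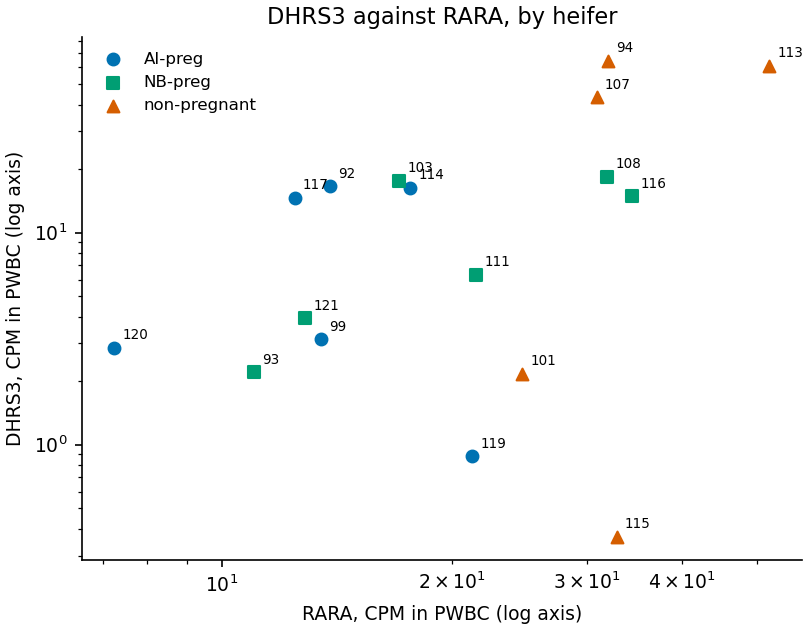
CPM of DHRS3 against CPM of RARA on log axes, 1 point per heifer, by group. Heifers 94, 107 and 113 have the highest DHRS3 of all and RARA of 30.9 to 51.96 CPM, while heifers 101 and 115 combine RARA of 24.7 and 32.8 CPM with DHRS3 of 2.16 and 0.369 CPM.

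The levels of both genes were set beside markers of the white cell types, since a bulk sample cannot tell more cells of a type from more RNA per cell. Of the 10 neutrophil markers listed, 4 were identified (CXCR2, TREM1, CSF3R and S100A12). Their summed level ran from 76.7 to 4132 CPM in AI-preg, from 220 to 2865 CPM in NB-preg and from 167 to 12979 CPM in non-pregnant heifers, and no identified marker was at 0 in any library. The mean log2(CPM + 1) of CXCR2 and TREM1, called the neutrophil score here, was 4.68 in non-pregnant, 2.19 in AI-preg and 2.65 in NB-preg heifers. The difference of non-pregnant from AI-preg heifers was 2.49 (exact permutation test, two-sided p = 0.0238, 0.0476 after adjustment over 4 contrasts), a call that ended with all 4 markers in the score (exact permutation p = 0.0541) or without heifer 119 (exact permutation p = 0.0556). The difference from NB-preg heifers was 2.02 (exact permutation p = 0.0519, adjusted 0.0693). The markers could be identified only through results of the study on the same heifers. Their lists were also chosen with earlier results of these data known. These p of the score are therefore no independent evidence of a group difference.

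DHRS3 was in general higher in heifers with more of these markers, and the T cell marker LCK, given below, followed DHRS3 at both ends. Its r with the neutrophil score was 0.731 over all heifers (rho = 0.561) and 0.777 with groups centred (rho = 0.752), and the centred values passed the permutation test within groups (p = 0.00267 for r and 0.00412 for rho, adjusted 0.0141 and 0.0124). It was 0.720 among AI-preg and 0.410 among NB-preg heifers (exact permutation p = 0.0931 and 0.406, n = 6 each). Without heifers 94, 107 and 113 the r of DHRS3 with the score fell to 0.392, and to 0.566 with groups centred (permutation p = 0.0560). With heifers 101 and 115 left out, the 2 farthest from the median of centred DHRS3, the centred r was 0.551 (permutation p = 0.0657). The centred relation with the score thus weakened but stayed positive without either set of animals. It did not pass the permutation test on the fewer animals. With the logarithm of the summed level of all 4 markers, a measure added after the values were seen, r of DHRS3 was 0.957 over 17 heifers, 0.915 without heifers 94, 107 and 113, 0.965 among AI-preg and 0.887 among NB-preg heifers. S100A12 made up most of that sum. Its mean was 1382 of 1428 CPM in AI-preg, 1141 of 1198 CPM in NB-preg and 6770 of 7458 CPM in non-pregnant heifers. The r with the sum therefore says little of CXCR2, TREM1 and CSF3R. All these correlations are within the same libraries and share their depth.

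For RARA the r with the neutrophil score was 0.644 over all heifers (rho = 0.581) and 0.348 with groups centred (rho = 0.328), and the centred values did not pass the permutation test within groups (p = 0.179 and 0.211, adjusted 0.269 and 0.316). It was -0.0380 among AI-preg and 0.481 among NB-preg heifers (exact permutation p = 0.925 and 0.338, n = 6 each). Without heifers 94, 107 and 113 the r of RARA was 0.357 with the score, close to that of DHRS3, and -0.0150 with the summed level of the 4 markers. Heifer 115 had 32.8 CPM of RARA at 167 CPM of the summed markers. Whether the r of RARA and of DHRS3 with the markers differ was not tested.

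**Figure D3:**
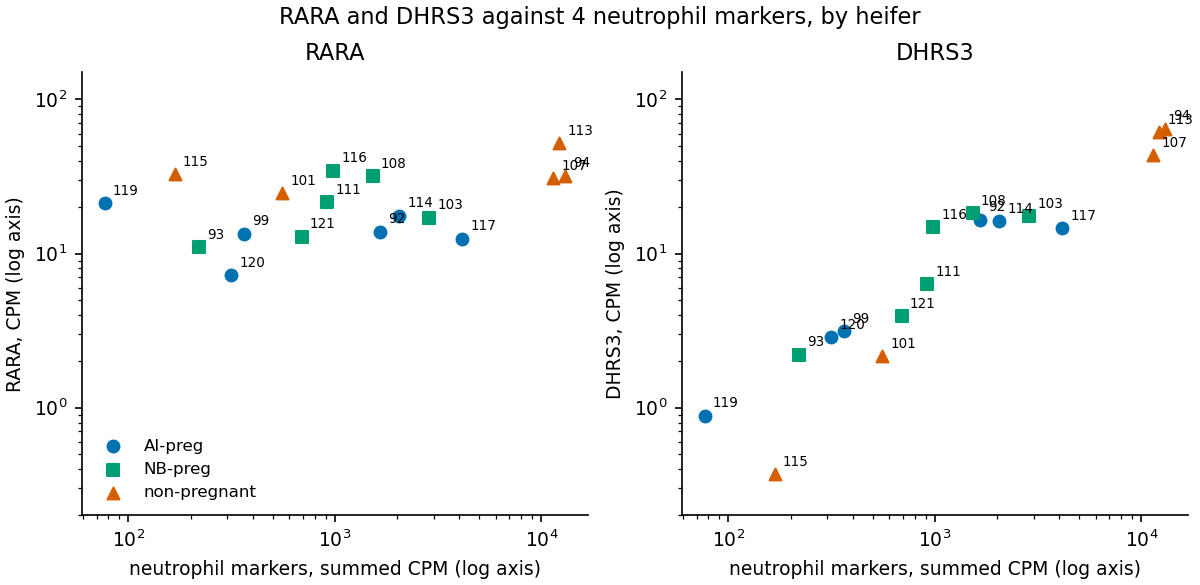
CPM of RARA (left) and DHRS3 (right) against the summed CPM of CXCR2, TREM1, CSF3R and S100A12, log axes, 1 point per heifer. The marker level is made up mostly of S100A12. DHRS3 rises along it (r = 0.957 over 17 heifers on the log scale), and heifers 101 and 115 lie with the pregnant heifers of low marker level, whereas RARA is at 24.7 CPM or more in the non-pregnant heifers at low and high marker level.

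With the neutrophil score as a covariate in the fit, the log2 fold change of RARA was 0.95 for non-pregnant over AI-preg and 0.45 over NB-preg. That of DHRS3 turned to -1.59 and -1.83. Other white cell markers moved as well. LCK of T cells, like DHRS3, was highest in heifers 94, 113 and 107 (401, 342 and 288 CPM). Both genes were lowest in heifers 115 and 119, with LCK at 3.32 and 7.04 CPM. The correlation of LCK with DHRS3 was not tested, so the relation of DHRS3 is not shown to be particular to neutrophil markers. T cells (LCK, 1 of 6 markers identified) ran from 7.04 to 247 CPM in AI-preg, 37.1 to 216 CPM in NB-preg and 3.32 to 401 CPM in non-pregnant heifers. CD22 of B cells ran from 30.3 to 399 CPM, 27.2 to 528 CPM and 7.74 to 608 CPM in the same order. NKG7 of NK cells (1 of 4 markers) reached 29.8, 41.2 and 69.6 CPM, IL5RA of eosinophils (1 of 4) 17.4, 13.96 and 36.8 CPM, and ITGA2B of platelets (1 of 4) 16.4, 29.3 and 64.3 CPM at the highest. No marker of monocytes (of 5) or red cells (of 4) was identified, and the part of these cell types in RARA and DHRS3 was not tested. RARA was also higher in the shallower libraries (r = -0.559 and rho = -0.600 with the log2 library total), and r was -0.624 without heifers 94, 107 and 113. It was -0.493 among AI-preg and -0.438 among NB-preg heifers (exact permutation p = 0.322 and 0.371, n = 6 each). With groups centred it was -0.207 (rho = -0.135, permutation p = 0.492 and 0.650, adjusted 0.554 and 0.650). The centred r was -0.407 without heifers 94, 107 and 113 (permutation p = 0.226), and 0.0524 without heifers 116 and 120. The part of depth in the level of RARA was not tested. For DHRS3 the r with the library total was -0.126 (rho = -0.105), and 0.0438 with groups centred (rho = 0.186, permutation p = 0.868 and 0.477, adjusted 0.868 and 0.536).

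The other genes of the retinoid pathway were taken from lists of 68 genes, 66 without RARA and DHRS3. Only 7 of these 66 carried a symbol in the tables used here, which come from results of the study on the same heifers, so that the 7 are no even sample of the pathway. They are the receptor RXRA, the retinal reductase DHRS4, the corepressor subunits HDAC3 and TBL1X, the coactivator EP300, the liver X receptor NR1H3, which pairs with RXRA, and the integrin ITGA4, a retinoic acid target in lymphocytes. None of the genes for retinoid binding and transport (10), for making retinoic acid (3) or for breaking it down (3) was identified.

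None of the 7 passed an adjusted p of 0.05 in any comparison by edgeR's quasi-likelihood test or DESeq2. The same was true of all 10942 genes by the quasi-likelihood test (0% called), with 585 genes under an unadjusted p of 0.05 for non-pregnant against AI-preg, 672 against NB-preg and 16 between the pregnant groups. DESeq2 called 5 (0.0457%), 11 (0.101%) and 0 genes in the same comparisons, all higher in the non-pregnant heifers. The log2 fold change of non-pregnant over AI-preg was positive for 5 of 7 genes with a median of 0.83, beside -0.15 over all genes tested. With DESeq2 size factors, which move that median to 0.16, EP300 turned from -0.12 to 0.06 and 6 of 7 were positive. Without heifers 94, 107 and 113 it was positive for 3 of 7 with a median of -0.01, beside -0.13 over all genes, and with the neutrophil score as covariate for 4 of 7 with a median of 0.05, beside -0.07. Over NB-preg it was positive for 5 of 7 with a median of 0.55, beside -0.05, and without those 3 heifers for 3 of 7 with a median of -0.29, beside -0.04. For NB-preg over AI-preg it was positive for 4 of 7, with a median of 0.16 beside -0.09.

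RXRA, the partner receptor of RARA, was at 94.7 CPM in heifer 94, 22.8 in heifer 101, 53.97 in heifer 107, 50.8 in heifer 113 and 29.6 in heifer 115. It ran from 11.9 to 34.2 CPM (median 22.2) in AI-preg and from 6.07 to 49.3 CPM (median 23.3) in NB-preg heifers. Heifers 94, 107 and 113 lay above all pregnant heifers and the other 2 within their range, which is the split of DHRS3 at its upper end but not at its lower. The log2 fold change of RXRA was 1.19 (SE 0.49) over AI-preg (quasi-likelihood test, unadjusted p = 0.0259, adjusted p = 0.780) and 0.97 (SE 0.49) over NB-preg (adjusted p = 0.778), and 0.25 and 0.03 without those 3 libraries. RARA and RXRA had an r of 0.534 over all heifers (rho = 0.493), and with groups centred 0.290 (rho = 0.282, permutation p = 0.343 and 0.320, adjusted 0.441 and 0.411). DHRS3 and RXRA had an r of 0.607 (rho = 0.652), and with groups centred 0.587 (rho = 0.728, permutation p = 0.0148 and 0.00152, adjusted 0.0445 and 0.00684). The centred r fell to 0.428 without heifers 101 and 115 (permutation p = 0.136) and was 0.397 without heifers 94, 107 and 113 (permutation p = 0.179).

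**Figure D4:**
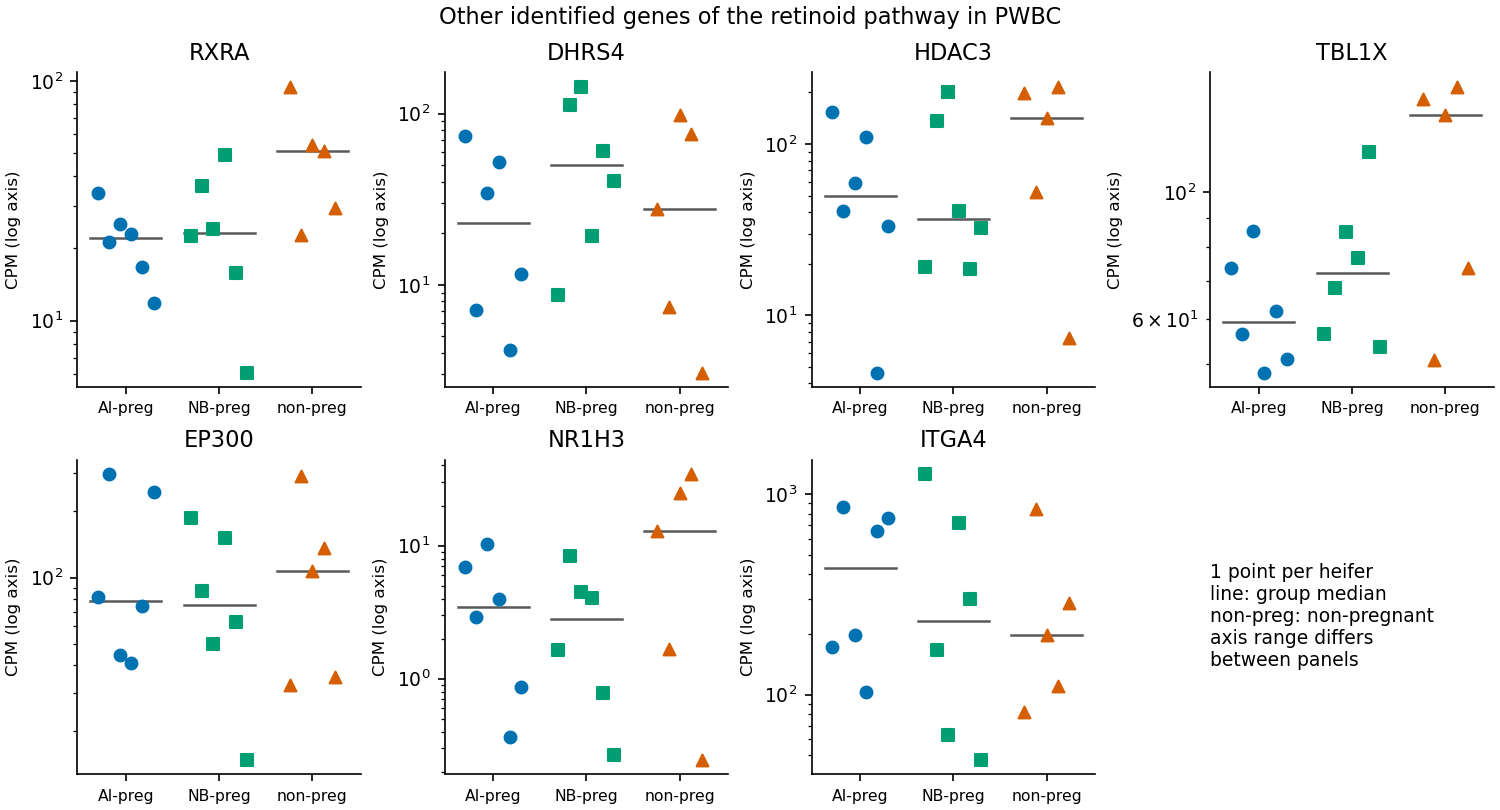
CPM in PWBC, log axes of differing range, of the 7 other retinoid pathway genes identified, 1 point per heifer, with group medians as lines. For RXRA, TBL1X and NR1H3 the 3 highest heifers are non-pregnant, but the other 2 non-pregnant heifers lie among or below the pregnant ones.

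TBL1X, which anchors HDAC3 in the corepressor complex bound by unliganded RARA, was at 145, 50.8, 136, 153 and 73.6 CPM in heifers 94, 101, 107, 113 and 115, and at 48.3 to 117 CPM in the pregnant heifers. Its log2 fold change over AI-preg was 0.83 (SE 0.35, quasi-likelihood test, unadjusted p = 0.0265, adjusted p = 0.780), and -0.01 without heifers 94, 107 and 113. NR1H3 was at 12.9, 1.68, 24.9, 34.6 and 0.246 CPM in the same heifers and at 0.267 to 10.2 CPM in the pregnant ones. As for DHRS3, heifers 101 and 115 were the lowest of the non-pregnant group, and heifer 115 the lowest of all. These NR1H3 values rest on 7 and 2 read pairs. Heifer 121, the lowest pregnant one at 0.267 CPM, had 4, too few to order it against heifer 115. The log2 fold change of NR1H3 over NB-preg was 2.19 (SE 1.03, unadjusted p = 0.0470, quasi-likelihood test, adjusted p = 0.778). It was -1.81 without heifers 94, 107 and 113, which leaves only the few read pairs of heifers 101 and 115 on the non-pregnant side. DHRS4, like DHRS3 a reductase of retinal, was at 97.8 CPM in heifer 107, 76.1 in heifer 113, 27.8 in heifer 94, 7.43 in heifer 101 and 3.07 in heifer 115, against 4.14 to 144 CPM in the pregnant heifers. Its log2 fold change was 0.47 (SE 0.86) over AI-preg and -0.59 (SE 0.87) over NB-preg, and -2.56 and -3.62 without heifers 94, 107 and 113.

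The genes most like RARA and DHRS3 over the 17 heifers were listed among the 2304 other genes with a symbol, by r of log2(CPM + 1). For RARA they were ECE1 (r = 0.822), KDM6B (0.816), TBL1X (0.788), DAGLB (0.775) and IL1RN (0.761). KDM6B encodes a demethylase of histone H3 lysine 27 and IL1RN the antagonist of the interleukin-1 receptor. The lowest r of RARA were with CDV3 (-0.754), PIGB (-0.751) and DONSON (-0.748). The genes most like DHRS3 were TRIR (r = 0.980), S100A13 (0.978), FCER1G (0.975), ACSF2 (0.972) and UXT (0.968), of which FCER1G encodes the signalling chain that Fc receptors of myeloid cells share. The lowest r of DHRS3 were with TRIM2 (-0.948), ETAA1 (-0.945) and ERCC6L2 (-0.937).

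The profile of DHRS3 was shared by many genes and that of RARA by few. Of all 10941 other filtered genes, 258 (2.36%) had an r over 0.9 with DHRS3 and 50 (0.457%) one under -0.9. With RARA none reached 0.9 in either direction, and 8 (0.0731%) had an r over 0.75. The median absolute r was 0.54 for DHRS3 and 0.28 for RARA. The likeness of DHRS3 to its 5 genes stayed without heifers 94, 107 and 113, at 0.952 to 0.971, and that of RARA to its 5 genes was then 0.648 to 0.794. Points share library and depth, and these values are descriptions.

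In plasma, bta-mir-744 (ENSBTAG00000030109) is a miRNA that the study lists with DHRS3 from the same heifers, so its relation to DHRS3 is no independent evidence. It was at 44.0 CPM of plasma reads in heifer 94, 15.8 in heifer 107 and 11.1 in heifer 113, below all pregnant heifers, which ran from 79.9 to 428 CPM. In heifers 101 and 115 it was at 332 and 289 CPM, within the upper range of the AI-preg heifers. The heifers with the highest DHRS3 were thus those with the lowest bta-mir-744. The r of DHRS3 with bta-mir-744 was -0.844 over all heifers (rho = -0.860), and -0.743 without heifers 94, 107 and 113. It was -0.838 with groups centred (rho = -0.875, permutation p = 0.00313 and 0.000640 within groups, adjusted 0.0141 and 0.00576). Within groups it was -0.811 for AI-preg and -0.349 for NB-preg heifers (exact permutation p = 0.0333 and 0.424, two-sided, n = 6 each). Without heifers 119 and 115, farthest from the median of DHRS3, r was -0.815, and with groups centred and without heifers 101 and 115 it was -0.559 (permutation p = 0.0536).

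**Figure D5:**
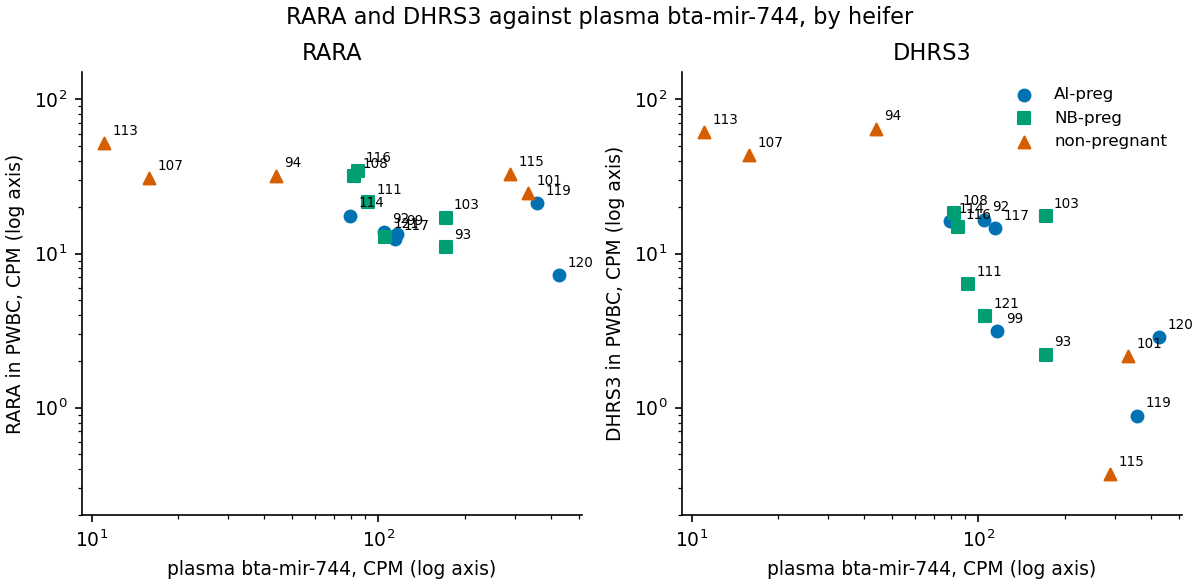
CPM of RARA (left) and DHRS3 (right) in PWBC against CPM of bta-mir-744 in plasma of the same heifer, log axes, by group. DHRS3 falls from 43.5 to 64.7 CPM at 11.1 to 44.0 CPM of the miRNA to 0.369 to 2.87 CPM at 289 to 428 CPM of the miRNA, while RARA stays at 24.7 CPM or more in the non-pregnant heifers at both ends.

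With RARA the r of bta-mir-744 was -0.564 (rho = -0.529), and -0.424 with groups centred (rho = -0.431, permutation p = 0.0323 and 0.0385 within groups, adjusted 0.0727 and 0.0866). The uncentred r fell to -0.238 without heifers 113 and 120 and to -0.172 without heifers 94, 107 and 113. The centred r was -0.435 without heifers 94, 107 and 113 (permutation p = 0.130) and -0.338 without heifers 116 and 120 (permutation p = 0.198). Only the uncentred relation thus rested largely on the animals left out. Within groups r was -0.310 for AI-preg and -0.763 for NB-preg heifers (exact permutation p = 0.551 and 0.0972, n = 6 each). Of the 119 miRNAs identified, the largest absolute r of RARA were with copies of bta-mir-181a (ENSBTAG00000029849, r = -0.763, and ENSBTAG00000029841, r = -0.735) and of bta-mir-181b (ENSBTAG00000029993, r = -0.722). Those of DHRS3 were with bta-mir-744 and copies of bta-mir-181b (ENSBTAG00000029896, r = -0.793, and ENSBTAG00000029993, r = -0.773). Copies of one miRNA share near-identical sequence and reads with several alignments were removed, so their separate levels are uncertain.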

How the data were processed

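PWBC mRNA and plasma small RNA of 17 heifers were used, 34 libraries in all. Per the submitters' notes and methods, the authors used HISAT2 2.1.0 (assembly ARS-UCD1.2) and featureCounts 1.6.0, after dropping duplicates, multi-mapped reads and those with at least 5 mismatches. They deposited raw counts for 27570 genes, by strand for PWBC. The annotation version differs between their text and code, as does that of featureCounts between notes and code, and no coordinates or sequences are given.

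From these counts CPM, log2(CPM + 1) and edgeR 4.0.16 quasi-likelihood fits (robust, plain library totals, 3 groups in 1 fit, Benjamini-Hochberg over all 10942 genes) were computed under R 4.3.3, with DESeq2 1.42.0 and edgeR's likelihood ratio test as alternatives. The SE given is approximate, the absolute log2 fold change divided by the square root of the quasi-likelihood F statistic. For RARA and DHRS3 it is given as description only. Plasma CPM used the 1086 genes over 1 CPM in 5 or more libraries. Correlations and exact permutation tests used Python 3.11.15 and scipy 1.17.1, with 100000 resamples where not exact. The p over all heifers of correlations with RARA and DHRS3 was planned but is not given, since it uses the group differences by which they were chosen, and permutation within groups was added. Scripts were tested on simulated data. Symbols came from the supplementary tables, for 2309 of the 10942 genes. RARA, DHRS3, the lists and the alternatives were chosen with earlier results of these data known. Named were RARA, DHRS3, list receptors and enzymes, the 2 other list genes of smallest p, and the most similar genes and miRNAs by r. EP300, HDAC3 and ITGA4 were named besides, to account for the list. Of markers, CXCR2, TREM1 and the most counted of each list were named, and the others after their values were seen. For B cells CD22 alone is given, and a further marker is not reported here.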

Additional observations from a re-analysis of the deposited data

Results flagged for a closer look

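The small RNA libraries of plasma, which are not used for mRNA, held reads counted on RARA. The median over the 17 heifers was 5 reads, with a range of 0 to 20 and 1 library at 0, above the limit of 3 reads that a count of 0 allows. These reads stayed below the filter for plasma genes and were not compared between groups. DHRS3 had 0 plasma reads in 14 libraries and at most 2 in the others. Of 33 groups of 5 or 6 heifers checked over 11 measures, none held a heifer past Dixon's critical value.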

How the results depend on the processing

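The log2 fold changes of RARA kept their sign under every alternative run. Scaling moved them, from 1.27 over AI-preg to 1.39 with TMM factors and 1.59 with DESeq2 size factors, which shift the median of all genes from -0.15 to 0.16, and the range with single heifers left out was 1.07 (without heifer 113) to 1.42. For DHRS3 the log2 fold change ran from 1.57 to 2.25 over AI-preg and from 1.36 to 2.03 over NB-preg with single heifers left out. With the neutrophil score as covariate it was -1.59, -1.83 and, over both pregnant groups together, -1.71 in place of 1.82. Without heifers 94, 107 and 113, a setting chosen after seeing the data, it was -2.89, -3.10 and -2.995. The log2 fold change of DHRS3 between the pregnant groups (0.22) ran from -0.02 to 0.48 with single heifers left out, and was below 0 without heifer 108 or 119.

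Genes called rose from 0 to 5, 11 and 44 with DESeq2 (against AI-preg, NB-preg and both), to 18 with the likelihood ratio test and to 3 without the filter, both against the 2 pregnant groups together, and none of the 7 other pathway genes was among them. The r of RARA and DHRS3 was -0.0774 after removal of the neutrophil score and 0.296 (without heifer 113) to 0.609 (without heifer 115) with single heifers left out. That of RARA and bta-mir-744 was -0.132 after this removal, -0.450 with plasma totals over the miRNAs and -0.172 without heifers 94, 107 and 113, and -0.670 to -0.400 with single heifers left out. The r of DHRS3 and bta-mir-744 stayed at -0.877 to -0.819 when single heifers were left out. The difference in neutrophil score between non-pregnant and AI-preg heifers was 2.72 over the whole list (exact permutation p = 0.0541) and 2.08 to 2.99 with single heifers left out, with an exact permutation p of 0.0556 at most (without heifer 119). That from NB-preg heifers was 2.03 with TMM factors (exact permutation p = 0.0476) and 1.61 to 2.52. The cause was not tested. No paired analysis was possible because the groups compared share no heifer numbers. DHRS3 rests on few read pairs in heifers 101 and 115, with 9 and 3. The library of heifer 101 was the shallowest of PWBC, with a total of 4184999. That of heifer 115 (8150879) was about as deep as that of heifer 107 (8175887), which had 355 read pairs of DHRS3.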
